A study of Homo sapiens with 16 samples.

Results

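The YAP-TEAD pathway genes described here are AXL, AMOTL2, CCN1, VGLL4 and WWC1. Clusters are the genomic regions that the study's authors listed as bound by AIB1 in their ChIP-seq (chromatin immunoprecipitation followed by sequencing). AIB1 is the product of NCOA3 and a coactivator of nuclear receptors and other transcription factors. The 5 genes were chosen by the presence of a listed cluster near their transcription start site (TSS), so the presence of a cluster near them is a description and not a finding. Within 200 kb of the canonical TSS of these genes lay 8 of the 897 different clusters of the series, which make up 14 of the 1378 entries of its 4 lists. The clusters of each gene were taken by distance alone. Scores and sequences were not part of that rule beyond the authors' own cutoff for listing a cluster. The 5 genes were not the only ones to meet it. Another 11 genes of the pathway, described further on, also had a cluster within 200 kb. The 5 were chosen with earlier results of these data known, so their scores and sequences may not be independent of that choice.

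In the Hippo pathway, a kinase cascade phosphorylates the coactivators YAP and TAZ and keeps them out of the nucleus. When the cascade is inactive, YAP and TAZ enter the nucleus and bind TEAD proteins, which recognise DNA and often share enhancers with the AP-1 factors of the FOS and JUN families. In mammary epithelium the pathway responds to cell density, attachment and stretch. AXL, a receptor tyrosine kinase for GAS6, and CCN1, a secreted matrix-associated protein also called CYR61, are classical YAP target genes. AMOTL2, an angiomotin family scaffold that binds YAP, is both a regulator and a target. VGLL4 binds TEAD proteins in competition with YAP, and WWC1, also called KIBRA, is a scaffold that promotes activation of the LATS kinases upstream of YAP.

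The study compared MCF10A, a non-tumorigenic human mammary epithelial line, with MCFDCIS, a derivative that models ductal carcinoma in situ, and each line with its D4 counterpart. The series title ties D4 to an AIB1 isoform, and the way the D4 cells were made, and whether they are clones, are not given in the labels. There were 4 groups of 3 ChIP samples with 1 input each, and all were grown in medium with 5% horse serum, 20 ng/ml EGF, hydrocortisone, cholera toxin and insulin. Each group was represented by 1 list of clusters with no value per replicate, so no value below has a replicate error and no difference between groups could be tested. The sample descriptions cite lists named after the other cell line, so the lists are called MCF10A-named and MCFDCIS-named here and none is assigned to a line. They held 490 parental and 138 D4 clusters in the MCF10A-named pair and 651 and 99 in the MCFDCIS-named pair. Sequencing depth is unknown, no cluster lay on chromosomes 20, 21 or 22, and lists of regions give no expression against which the cell type could be checked.

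The cluster nearest to each gene is shown by the 200 bases at its centre, since the motif content described further on can be read from these sequences. They are from the forward strand of GRCh37. Capitals mark the TEAD core GGAATG or its reverse complement and the AP-1 core TGACTCA or its reverse complement. The windows are chr19:41732006-41732205 (AXL), chr3:134071156-134071355 (AMOTL2), chr1:85998206-85998405 (CCN1), chr3:11609656-11609855 (VGLL4) and chr5:167792756-167792955 (WWC1).
AXL: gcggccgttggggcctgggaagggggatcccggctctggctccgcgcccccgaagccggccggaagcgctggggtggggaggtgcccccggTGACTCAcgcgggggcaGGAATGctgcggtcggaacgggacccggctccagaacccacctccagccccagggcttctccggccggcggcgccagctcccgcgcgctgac
AMOTL2: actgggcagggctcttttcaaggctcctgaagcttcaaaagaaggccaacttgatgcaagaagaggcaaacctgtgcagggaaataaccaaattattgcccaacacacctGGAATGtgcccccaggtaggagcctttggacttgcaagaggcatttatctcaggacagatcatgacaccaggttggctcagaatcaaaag
CCN1: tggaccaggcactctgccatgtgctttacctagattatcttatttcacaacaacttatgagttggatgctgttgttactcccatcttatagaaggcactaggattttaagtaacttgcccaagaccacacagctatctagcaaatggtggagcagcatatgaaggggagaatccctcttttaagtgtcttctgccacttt
VGLL4: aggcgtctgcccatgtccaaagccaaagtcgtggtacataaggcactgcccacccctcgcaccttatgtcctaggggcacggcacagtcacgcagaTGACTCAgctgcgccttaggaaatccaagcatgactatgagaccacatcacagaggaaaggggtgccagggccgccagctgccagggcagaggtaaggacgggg
WWC1: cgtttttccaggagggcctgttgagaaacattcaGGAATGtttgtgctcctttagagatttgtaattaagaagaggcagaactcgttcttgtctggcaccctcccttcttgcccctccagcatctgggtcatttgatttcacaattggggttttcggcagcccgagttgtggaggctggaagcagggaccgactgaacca

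The AXL window holds an AP-1 and a TEAD core side by side, the AMOTL2 and WWC1 windows hold a TEAD core, the VGLL4 window holds an AP-1 core and the CCN1 window holds neither. In AXL the AP-1 core covers bases 41732097 to 41732103 of chromosome 19 and reaches into the 10 bp cluster, and the TEAD core covers bases 41732114 to 41732119. Their centres are 16.5 bp apart. In VGLL4 the AP-1 core covers bases 11609752 to 11609758 of chromosome 3, entirely inside the 10 bp cluster.

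AXL, AMOTL2, VGLL4 and WWC1 had a cluster in both parental lists, CCN1 only in the parental MCF10A-named list, and VGLL4 alone also in a D4 list. The MCF10A-named parental list held 7 of the 8 clusters, at all 5 genes, and the parental MCFDCIS-named list held 6, at 4 genes. The MCFDCIS-named D4 list held 1 and the MCF10A-named D4 list held 0. Of all 19881 protein-coding genes, 6.98% had a cluster within 200 kb in the parental and 1.81% in the D4 list of the MCF10A-named pair, and 10.0% and 2.36% did in the MCFDCIS-named pair. Because the genes were chosen from these lists, nothing is read from their counts against these shares.

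**Figure D1:**
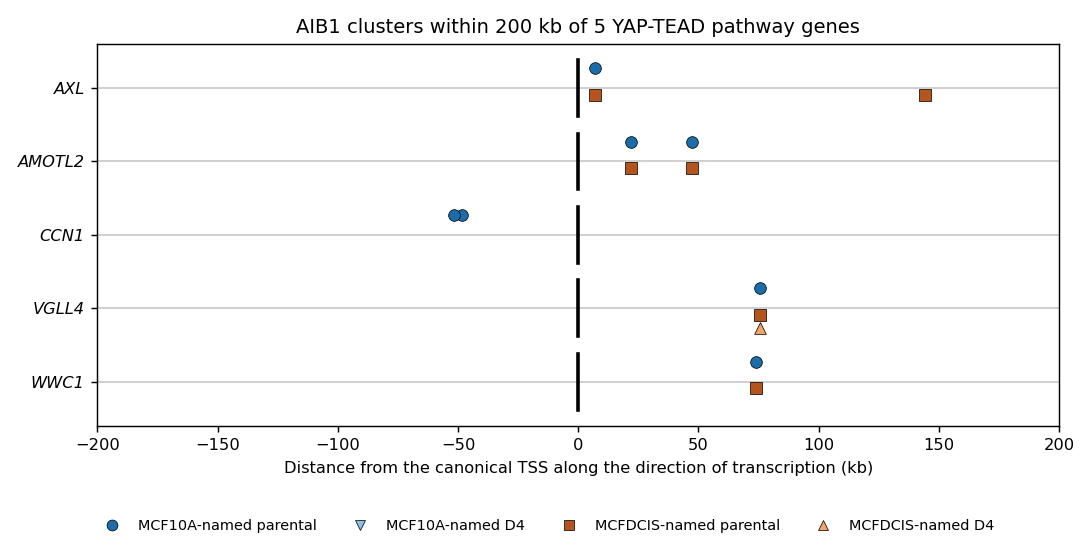
Position of each listed AIB1 cluster relative to the canonical TSS (black bar at 0), in kb along the direction of transcription, for the 5 genes; symbols stand for the 4 lists. All clusters lie downstream of the TSS except the CCN1 pair at 48.1 and 51.8 kb upstream, and the MCF10A-named D4 list has no symbol.

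No cluster lay within 1 kb of the canonical TSS of its gene, and 6 of the 8 lay downstream of it. The gene concerned had the nearest canonical TSS of any protein-coding gene for 7 of the 8 clusters. The exception was the more distant AXL cluster. Of the 11 other pathway genes with a cluster, 6 had the nearest TSS to their nearest cluster. The genes were chosen for having a cluster nearby, and shares over all clusters were not computed for side or nearest gene. Nothing is therefore read from these counts. The window edge did not decide membership closely, since the farthest cluster inside lay at 144.5 kb (AXL) and the nearest cluster outside at 256.5 kb (also AXL). For WWC1 the nearest cluster outside lay at 355.5 kb, and for AMOTL2, VGLL4 and CCN1 at 2240, 2474 and 4309 kb.

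At AXL the nearer cluster covered chr19:41732101-41732110, in intron 4 of the gene and 6.97 kb downstream of the canonical TSS at 41725128. It was listed in both parental lists, scoring 24.3 under the MCF10A name and 45.0 under the MCFDCIS name, and in neither D4 list. The score is the authors' own value for a cluster; its definition is not stated in the files, and it was used only to rank clusters within a list. These scores gave rank 89 of 490 and rank 113 of 651, so the cluster stood in the highest 25% of both lists. A shorter annotated protein-coding transcript, AXL-203, starts at 41732660, and the cluster lay 0.55 kb upstream of that start. The next protein-coding TSS, that of CYP2S1, was 33.0 kb away.

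The farther AXL cluster, at chr19:41869601-41869610, lay 144.5 kb downstream of the AXL TSS and was in the parental MCFDCIS-named list alone, with a score of 19.1 and rank 335.5 of 651. It lay in intron 1 of B9D2, a gene for a protein of the cilium base, 0.444 kb from the B9D2 TSS and 9.77 kb from that of TGFB1, which encodes the cytokine TGF-beta 1. In all, 11 protein-coding genes had a TSS closer to it than AXL did. The nearest D4 clusters to AXL lay 854.7 kb away in the MCFDCIS-named and 2532 kb away in the MCF10A-named list.

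CCN1 differed from the other targets in position and rank. Its clusters, at chr1:85998301-85998310 and chr1:85994601-85994660, lay 48.1 and 51.8 kb upstream of the TSS at 86046444 and 3.64 kb apart. Both were in the parental MCF10A-named list only. Their scores of 7.30 and 7.33 were close to the lowest score in that list, 6.995, and gave ranks 471 and 469 of 490. Both lay outside the canonical transcript of any protein-coding gene but within the annotated extent of DDAH1, an enzyme gene read in the opposite direction, and of a long non-coding RNA gene. The canonical TSS of DDAH1 was 67.5 and 63.8 kb away. Its other annotated starts were not examined and may lie nearer. The nearest cluster to CCN1 in the parental MCFDCIS-named list lay 4309 kb away.

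The central 100 bp of the CCN1 cluster at 51.8 kb had no other match in the genome when 95% identity across 90 bp or more was required. Among hits within the search's limit on the E-value (equally good matches expected at random), it had 327388 others at 80% over 50 bp. The remaining 7 clusters had 0 at either limit. The E-value limit removes short or diverged matches, so these values of 0 do not exclude diverged repeated sequence. The CCN1 cluster at 51.8 kb was the only one of the 8 centred on repeated sequence by this measure. Whether reads from other copies contributed to it was not tested.

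AMOTL2 had 2 clusters, both in both parental lists and in neither D4 list. The nearer, at chr3:134071201-134071310, lay 22.0 kb downstream of the TSS at 134093289 and 2.88 kb beyond the end of the canonical transcript, within the annotated extent of RPL39P5, a processed pseudogene. It scored 26.7 in the parental MCF10A-named list, rank 72.5 of 490, and 42.5 in the parental MCFDCIS-named list, rank 126 of 651. The farther, at chr3:134045901-134046010, lay 47.3 kb downstream of the TSS, in the non-coding RNA gene LINC02004. It scored 17.8 and 19.5 in the same order, with ranks 142 of 490 and 331.5 of 651. In both lists the nearer cluster therefore ranked above the farther one. The next protein-coding TSS, that of RYK, was 101.5 and 76.2 kb from the nearer and the farther cluster. Clusters of the D4 lists were at least 6992 kb from AMOTL2.

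VGLL4, the TEAD-binding competitor of YAP, had the only cluster among the 8 that was also in a D4 list. The cluster, at chr3:11609751-11609760, lay in intron 2 of the gene, 75.6 kb downstream of the canonical TSS at 11685389. It scored 13.7 in the parental MCF10A-named list (rank 200 of 490), 26.5 in the parental MCFDCIS-named list (rank 242 of 651) and 10.5 in the MCFDCIS-named D4 list (rank 26.5 of 99). In all 3 lists it ranked above the median. The transcript VGLL4-208, one of 18 annotated for the gene, starts at 11610398, and the cluster lay 0.638 kb downstream of that start. No other protein-coding gene had its TSS within 200 kb of it, and the next, TAMM41, was 278.6 kb away. In the MCF10A-named D4 list the nearest cluster lay 18954 kb from VGLL4.

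WWC1, the upstream scaffold, had 1 cluster at chr5:167792801-167792910, in intron 1 and 74.2 kb downstream of the TSS at 167718650. It was in both parental lists and in neither D4 list. Its score was 18.1 in the parental MCF10A-named list, rank 137 of 490, and 14.01 in the parental MCFDCIS-named list, rank 427.5 of 651. It thus stood above the median of the first list and below that of the second. The transcript WWC1-202 starts 5.52 kb beyond the cluster. The nearest D4 clusters lay 708.0 kb (MCF10A-named) and 4152 kb (MCFDCIS-named) from the WWC1 TSS.

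Annotated alternative starts thus placed the nearer AXL and the VGLL4 clusters within 1 kb of a TSS of their gene, although they were 6.97 and 75.6 kb from the canonical one. Over all 897 clusters, 16.2% lay within 1 kb of the start of any transcript of a protein-coding gene and 8.47% within 1 kb of a canonical TSS. These shares count the starts of every gene. On that measure the farther AXL cluster also counted in both, being 0.444 kb from the canonical TSS of B9D2. Which transcripts the cells used was not measured in these files.

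**Figure D2:**
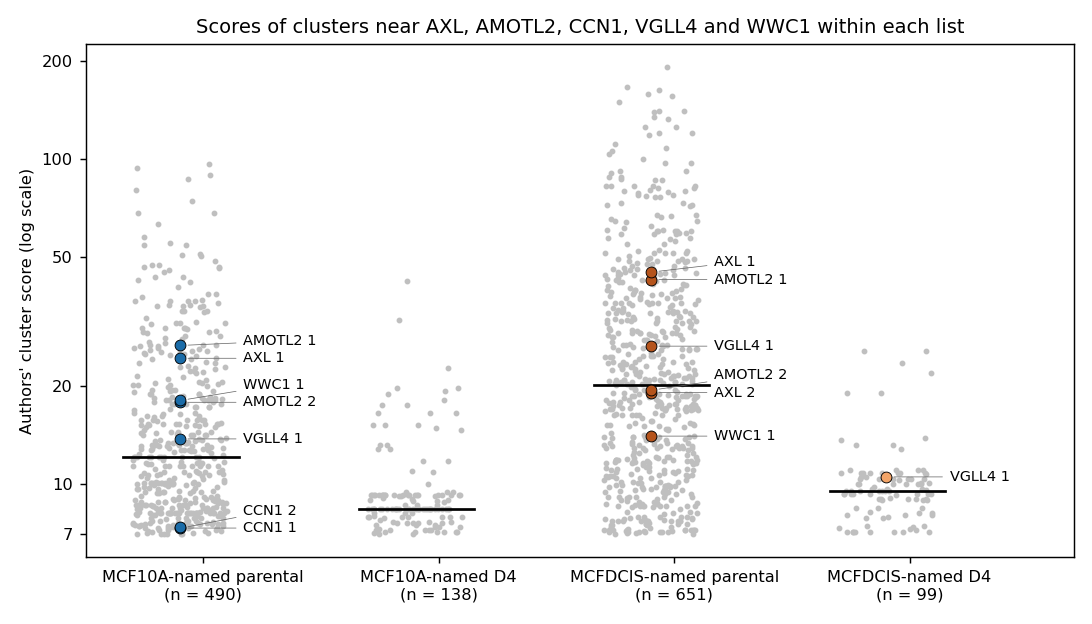
Authors' score of every cluster in each list on a log axis (grey points, jittered sideways), with the list's median as a bar and the clusters near the 5 genes as labelled coloured points (AXL 1 is the nearer AXL cluster, and so on). In the parental MCF10A-named list 5 of 7 lie above the median of 12.1 and the CCN1 pair at the lower end; in the parental MCFDCIS-named list 3 of 6 lie above the median of 20.1.

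The strongest clusters near these genes, the nearer AXL and AMOTL2 clusters, were well below the top of each list. The best rank near any of the genes was 72.5 of 490 in the parental MCF10A-named list and 113 of 651 in the MCFDCIS-named one, where the highest scores were 96.5 and 191.5. In the parental MCF10A-named list 5 of the 7 clusters were above the median score of 12.1, and in the parental MCFDCIS-named list 3 of 6 were above the median of 20.1. Lists differ in length and their scores were not compared with each other.

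Between the parental lists 5 of the 8 clusters were shared, with identical ends, and 3 were in 1 list each. The shared ones were 5 of the 7 in the MCF10A-named list, against 62.7% of all its clusters, and 5 of the 6 in the MCFDCIS-named list, against 47.2%. Sharing went with rank in the lists as a whole. Of the highest 25% of the parental MCF10A-named clusters 88.5% were also in the parental MCFDCIS-named list, whereas 43.2% of the lowest 25% were. The AXL and nearer AMOTL2 clusters were in the upper band, and the CCN1 pair was in the lower one.

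Between parental and D4 lists, 0 of the 7 parental MCF10A-named clusters and 1 of the 6 MCFDCIS-named ones were also in the D4 list of the same name. Among all parental clusters these shares were 13.7% and 9.98%, so with so few clusters the counts near these genes were close to the share of the whole lists. The absence of AXL, AMOTL2, CCN1 and WWC1 clusters from the D4 lists is therefore not read as a result about these genes. In the highest 25% by score, where AXL and the nearer AMOTL2 cluster stood, 9.02% of MCF10A-named and 14.1% of parental MCFDCIS-named clusters were in the D4 list of their name. Counts from single lists have no test, and a difference in depth between parental and D4 samples could not be assessed.

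**Figure D3:**
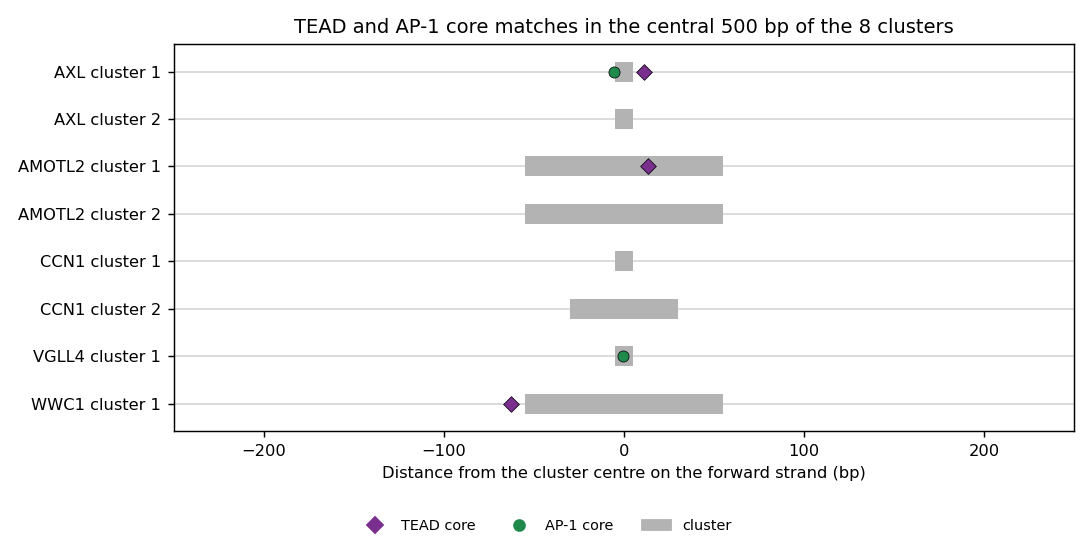
Matches to the TEAD core (diamonds) and the AP-1 core (circles) in the central 500 bp of the 8 clusters, by distance in bp from the cluster centre on the forward strand; grey bars give the clusters' widths. All 5 matches lie within 63 bp of a centre, and the farther AXL and AMOTL2 clusters and both CCN1 clusters have none.

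TEAD cores were found near AXL, AMOTL2 and WWC1. In the central 500 bp, 3 of the 8 clusters held GGAATG on either strand, against 35.1% of all 897 clusters. The same 3 held it in the central 200 bp, against 20.3%, and 1 of the 8 held it within the cluster itself, against 23.4%. The 3 were the nearer AXL, the nearer AMOTL2 and the WWC1 clusters, with the core centred 11, 13 and 63 bp from the cluster centre. AP-1 cores (TGACTCA on either strand) were in 2 of the 8, AXL and VGLL4, against 25.1% of all clusters, in the same 2 within the central 200 bp, against 15.7%, and in 1 within the cluster itself, against 18.1%. Both cores were in the central 500 bp of 1 of the 8, against 10.0%. The glucocorticoid response element (GNACA, any 3 bases, then TGTNC) was in 0 of the 8 central 500 bp windows against 7.02%, and the RUNX core TGTGGTT in 0 of the 8 against 15.2%. No motif overlapped another. Letters that match a core are a description and do not show that the factor was bound.

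At AXL, AMOTL2 and VGLL4 the matches were centred within 15 bp of the cluster centre, and at WWC1 the match was 63 bp away. Over all clusters with a match, the median distance of the nearest match from the centre was 68.5 bp for AP-1 and 77 bp for TEAD. The AP-1 cores of AXL and VGLL4 were centred 5.5 and 0.5 bp from the centre. A match within 10 bp of the centre was found in 24 of all 897 clusters, 2.68%. A TEAD core within 15 bp of the centre, as at AXL and AMOTL2, was found in 50, or 5.57%. TEAD and AP-1 cores with centres at most 20 bp apart, as at AXL, were found in 10, or 1.11%. These 3 limits were set after the positions at AXL, AMOTL2 and VGLL4 had been seen, so the shares only say how common such positions were.

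Base composition varied widely among the 8. The central 500 bp of the nearer AXL cluster had a GC content of 72.8%, and the VGLL4, farther AXL, WWC1, farther AMOTL2 and nearer AMOTL2 clusters had 59.6, 56.4, 55.8, 53.2 and 48.6%. The CCN1 pair was lowest, with 38.6 and 44%. The medians of the MCF10A-named and MCFDCIS-named parental lists were 47.8 and 47.0%. Their interquartile ranges were 41.6 to 55.2% and 41.6 to 54.9% in the same order. The nearer AXL, VGLL4, farther AXL and WWC1 clusters were thus above both ranges, and the nearer CCN1 cluster was below both. Widths were 10 bp in 4 of the 8 and 60 or 110 bp in the others. Of all clusters, 26.3% in the parental MCF10A-named and 28.9% in the parental MCFDCIS-named list were 10 bp wide. With so few clusters, nothing is read from this count.

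The wider pathway was covered by a list of 73 genes in all, of which 68 are not among the 5. Of these 68, 7 (10.3%) had a cluster within 200 kb in the parental MCF10A-named list, against the 6.98% of all protein-coding genes given above, and 10 (14.7%) in the parental MCFDCIS-named list, against 10.0%. In the D4 lists 2 of 68 (2.94%) had one in each, against 1.81% and 2.36%. The median distance from these 68 genes to the nearest cluster was 3652 kb in the parental MCF10A-named list, against 3014 kb over all protein-coding genes. In the parental MCFDCIS-named list it was 1897 against 2379 kb. Genes on chromosomes without a cluster in the list have no such distance and were left out of these medians. No test was made of these shares, and nothing particular to the pathway is read from them. Counted over any of the 4 lists, 11 of the 68 (16.2%) had a cluster within the window, against 10.9% of all protein-coding genes. This 10.9% also stands beside the counts by role given below, from which nothing is read. The other 57 of the 68 had no cluster within the window in any list, and 2 of these, STK4 and NF2, lie on chromosomes without clusters. So do 1272 of the 19881 protein-coding genes, and these are counted in every share over all protein-coding genes.

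**Figure D4:**
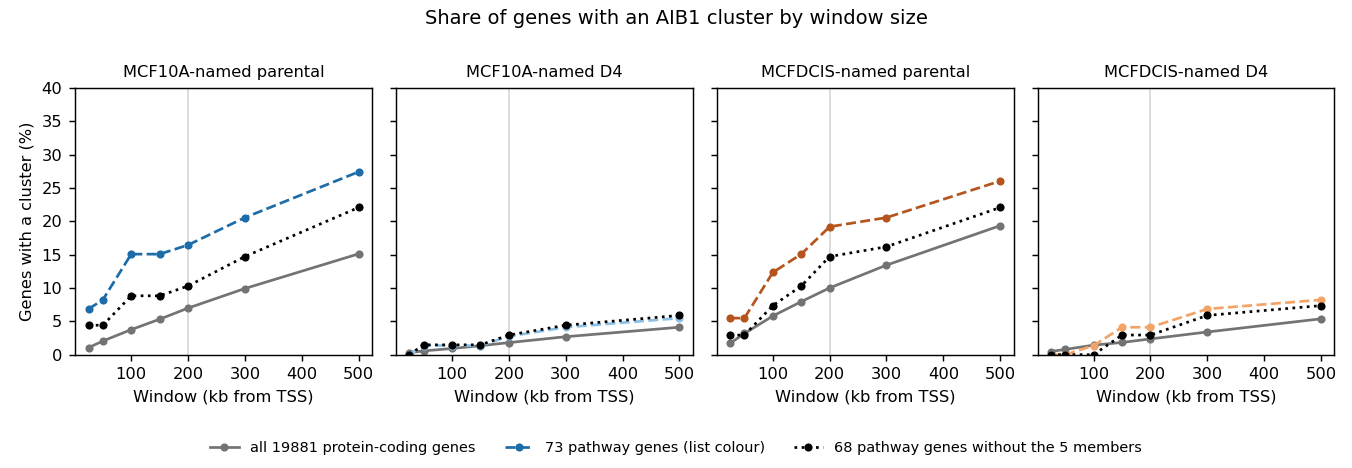
Percentage of genes with an AIB1 cluster within a given distance of the canonical TSS (x axis, kb) in each of the 4 lists, for all 19881 protein-coding genes (grey), the 73 pathway genes (dashed) and the 68 pathway genes other than the 5 described (dotted); the vertical line marks 200 kb. At 200 kb the dotted line stands at 10.3, 2.94, 14.7 and 2.94% from left to right, and the dashed line is raised by the 5 genes that were chosen for having a cluster.

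Among the transcription factors of the pathway, YAP1, WWTR1 (TAZ), TEAD1 and TEAD4 had no cluster within 200 kb, and the nearest to WWTR1 lay at 687.2 kb. TEAD2 and TEAD3 had one in the parental MCFDCIS-named list, but other genes were nearer to both clusters. That of TEAD2, at 125.6 kb, lay 0.386 kb from the TSS of the ribosomal protein gene RPL13A, and 16 protein-coding genes were closer than TEAD2. That of TEAD3, at 104.9 kb, lay in intron 5 of FKBP5, a steroid receptor chaperone gene. It was rank 103 of 651 there and rank 39.5 of 99 in the D4 list of the same name.

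Of the 8 core kinases and adaptors 1 had a cluster, MOB1A, which encodes the coactivator of the LATS kinases. It lay 9.55 kb upstream of the TSS in both parental lists, at rank 428 of 490 and 376 of 651, with MOB1A as the nearest gene. Of 21 other upstream and junction regulators, LLGL1 and AJUBA had one. LLGL1, a cell polarity gene, had 7 of them in the parental MCF10A-named list, the nearest 0.502 kb from the TSS in intron 1, and 6 in the MCFDCIS-named one, the nearest at 7.74 kb. It also had 1 in each D4 list, at 46.95 and 135.8 kb. Over all protein-coding genes with a cluster within 200 kb, the median number was 1 in both parental lists, and the maximum was 21 and 17. Whether other genes lay nearer to the remaining LLGL1 clusters was not examined. AJUBA, an inhibitor of LATS, had a cluster at 174.8 kb in both parental lists, in intron 2 of the transporter gene SLC7A7. VGLL1, VGLL2 and VGLL3, WWC2 and WWC3, and AMOT and AMOTL1 had none within 200 kb. Their family members VGLL4, WWC1 and AMOTL2 were chosen for having one, so nothing is read from this difference.

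Of the 22 genes of a conserved YAP target signature, 6 had a cluster in any list, against 10.9% of all protein-coding genes. Besides AXL, AMOTL2 and CCN1, which were chosen for having one, these were CCDC80, NUAK2 and TGFB2. CCDC80, a matrix protein gene, had a cluster 6.06 kb upstream in the parental MCF10A-named list only, at rank 306.5 of 490. NUAK2, a kinase gene, had one at 156.3 kb in the parental MCFDCIS-named list only, with 6 genes closer. TGFB2 had one 151.5 kb downstream in the parental MCFDCIS-named list (rank 194 of 651) and in the MCF10A-named D4 list (rank 97 of 138), but not in the parental MCF10A-named list. CCN2 and ANKRD1, which with CCN1 are among the most widely used YAP target genes, had none, and the nearest clusters lay 1658 and 17752 kb away.

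Of 9 further genes reported as YAP or TAZ targets 3 had a cluster in any list, against 10.9% of all protein-coding genes. All 3 had it in both parental lists and in neither D4 list. GADD45B, a stress response gene, had it 52.8 kb downstream in intron 3 of GNG7, at rank 44 of 490 and 469 of 651. EDN1, the endothelin 1 gene, had it 64.3 kb downstream, at ranks 238 and 286, with no other gene nearer. AREG, an EGF receptor ligand gene, had it 70.3 kb upstream at ranks 115 and 98, in intron 1 of EREG and 9.49 kb from the EREG TSS. Of the 11 pathway genes besides the 5 that had a cluster, 6 had the nearest protein-coding TSS to their nearest cluster and 5 did not.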

How the data were processed

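AIB1 ChIP-seq clusters of 4 groups (3 ChIP samples and 1 input each) were taken from 4 deposited lists without a header. ChIP was normalized to cell lysate input, per the series' design text, and the build was hg19 (GRCh37), per the submitters' processing notes. Not given in the sources used here are the aligner, the caller, its threshold and how replicates were combined. Per cluster the authors deposited a position and a score of undefined scale.

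Distances ran from the canonical TSS in GENCODE release 44 lifted to GRCh37 (19881 protein-coding genes) to the nearest base of a cluster. Clusters were shared at an overlap of at least 1 bp, and 0 overlapping pairs had different ends. Tied scores took the mean rank. Motifs were searched on both strands of the central 500 bp. Other genomic matches of the central 100 bp were sought with BLAST 2.17.0 under an E-value limit, before the identity and length limits were applied. Python 3.11.15, pandas 2.3.3, matplotlib 3.10.9, samtools 1.23.1 and pysam 0.24.0 served for the rest. Distance and motif functions were tested on simulated data.

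The 5 genes and the pathway list were chosen with earlier results of these data known. Named were the 5 genes and every pathway gene with a cluster within 200 kb, and other genes were added as neighbours or for comparison. The 100 kb, 50 kb, 25 kb and 500 kb windows, a score filter, other distance rules, overlaps and motif widths were tried.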

Additional observations from a re-analysis of the deposited data

How the results depend on the processing

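Of 65 alternative values for 15 results, 40 stayed within 1.5 times the main value, and none of these results carries a test. The 40 include counts of 0 that stayed 0. They also include a stricter overlap rule that could not change a count, since overlapping clusters had identical ends. The tally is therefore no measure of stability. Genes among the 5 with a cluster numbered 2 with a 25 kb window and 3 with 50 kb in the parental MCF10A-named list (5 at 200 kb), 2 and 2 in the parental MCFDCIS-named list (4), and 0 and 0 in its D4 list (1). Measuring to the cluster centre, or from any annotated TSS in place of the canonical one, left these counts as they were. Extra starts can only add genes, and no cluster lay close to the window edge, so neither change could lower them. For the 73 pathway genes, the MCF10A-named parental count of 12 became 5, 6 and 20 with 25, 50 and 500 kb windows, and its D4 count of 2 became 0, 1, 1 and 4 with 25, 50, 100 and 500 kb. The MCFDCIS-named parental count of 14 became 4, 4 and 9 with 25, 50 and 100 kb, and its D4 count of 3 became 0, 0, 1 and 6 with 25, 50, 100 and 500 kb. With clusters above the median score of each list, the pathway counts were 1 in the MCF10A-named D4 list and 9 in the parental MCFDCIS-named list, and 3 of the 5 clusters shared by the parental lists remained. Searching the whole cluster left 1 TEAD and 1 AP-1 match, as a 10 bp cluster can hold few letters. Leaving out replicates was not possible because each group has 1 list. No paired analysis was possible because the lists hold no value per replicate.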
